A study of Mus musculus with 8 samples.

Results

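The carbonic anhydrases are the zinc enzymes that interconvert carbon dioxide and bicarbonate, and their mouse genes carry the name *Car* with a number. Their transcripts were examined in epididymal fat, a visceral white adipose depot of male mice. The gene list was *Car2*, *Car3*, *Car4*, *Car5b*, *Car6*, *Car8*, *Car9*, *Car12*, *Car13* and *Car14*, 10 of the 16 family genes considered here. Each gene was read from probe sets that name it alone, with the brightest standing for the gene. On that rule 9 of the 10 were measured, each by 1 probe set, among 18820 genes in all. *Car14* shares both of its probe sets with *Aph1a* and has no value here. The genes were chosen by name with their *Sucnr1*-/- and WT values on these same arrays in view, so those values are given as a description, with no p-value.

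Tissue came from 8 male mice on a C57BL/6 background, 4 *Sucnr1*-/- and 4 WT littermates, with 1 Affymetrix Mouse Gene 1.1 ST array per mouse. All 8 mice received a semi-synthetic low-fat diet (LFD) for 16 weeks and were 24 to 26 weeks old at collection according to the labels. The paper gives a wider range of ages at the start of the diet than the labels do. In the *Sucnr1*-/- mice a cassette replaces most of the coding part of the succinate receptor gene in every cell type, so effects in adipocytes and in macrophages cannot be told apart. Expression is given as log2 values, on which 1 unit is a 2-fold difference, and each difference is *Sucnr1*-/- minus WT with its standard error (SE). No measure of background was used here, so a low value cannot be separated from absence of the transcript. The levels of different genes are not comparable because each has its own probes.

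The reaction that these enzymes speed up sets how quickly carbon dioxide, bicarbonate and protons exchange inside cells, in mitochondria and at the cell surface. Bicarbonate is also the substrate of the carboxylases that start fatty acid synthesis and refill the tricarboxylic acid (TCA) cycle, and in adipocytes the mitochondrial enzymes have long been linked to lipogenesis. CAR3 is among the most abundant proteins of mouse adipocyte cytosol, although its activity as a carbonic anhydrase is low. CAR8 lacks a zinc-binding histidine and has no such activity.

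*Sucnr1* was lower in every *Sucnr1*-/- mouse (5.41 to 7.11) than in every WT mouse (8.68 to 9.78), with a log2 difference of −3.05 (SE 0.36), which fits the labels. Array medians lay between 6.28 and 6.36, and pairs of arrays correlated at 0.981 to 0.993 over all probe sets. The 11 measured adipocyte markers had mean log2 levels of 12.4 to 13.6, each on its own probes, which gives no measure of the share of adipocytes. Macrophage markers had lower means in *Sucnr1*-/- mice for 11 of 12 genes (median −0.29), among them *Cd68* at −0.49 (SE 0.15). Lymphocyte markers had lower means for 8 of 8 genes (median −0.69), mesothelial markers for 7 of 8 (−0.18), stromal markers for 5 of 8 (−0.07), nerve markers for 1 of 3 (0.07), beige adipocyte markers for 5 of 7 (−0.09), epididymis markers for 4 of 8 (0.01) and immediate early genes, which respond to handling of tissue, for 10 of 12 (−0.31). Single mice weighed on several of these medians. Without *Sucnr1*-/- replicate 1 the mesothelial median was 0.07, the stromal one 0.00273 and that of immediate early genes −0.64. Without WT replicate 1 the lymphocyte median was −0.37 and that of immediate early genes −0.13, and without WT replicate 3 the stromal one was 0.02. The beige median was 0.15 with the dimmest 40% of genes left out. The part of these markers in the values below was not tested. Since whole tissue was measured, fewer cells of a type and less RNA per cell cannot be told apart.

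Among the listed genes, 2 of the 9 had a higher mean in *Sucnr1*-/- mice and 7 a lower one. Among all 18820 genes 53.2% were higher and 46.8% lower. The median log2 difference of the 9 genes was −0.12, against 0.01 over all genes. The genotypes did not overlap for 2 of the 9 genes, *Car6* and *Car3*, where 4.24% of all genes had groups without overlap. For the other 7 the *Sucnr1*-/- and WT values overlapped. Over all 14 measured family genes, 5 had a higher and 9 a lower mean (median −0.06), the 5 outside the list having a median of 0.12. No gene of the 18820 (0%) passed limma at an adjusted p under 0.05, and the lowest adjusted p was 0.321. At an unadjusted p under 0.05 limma gave 1284 genes and the methods' t-test 1247, of which none passed after adjustment.

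**Figure D1:**
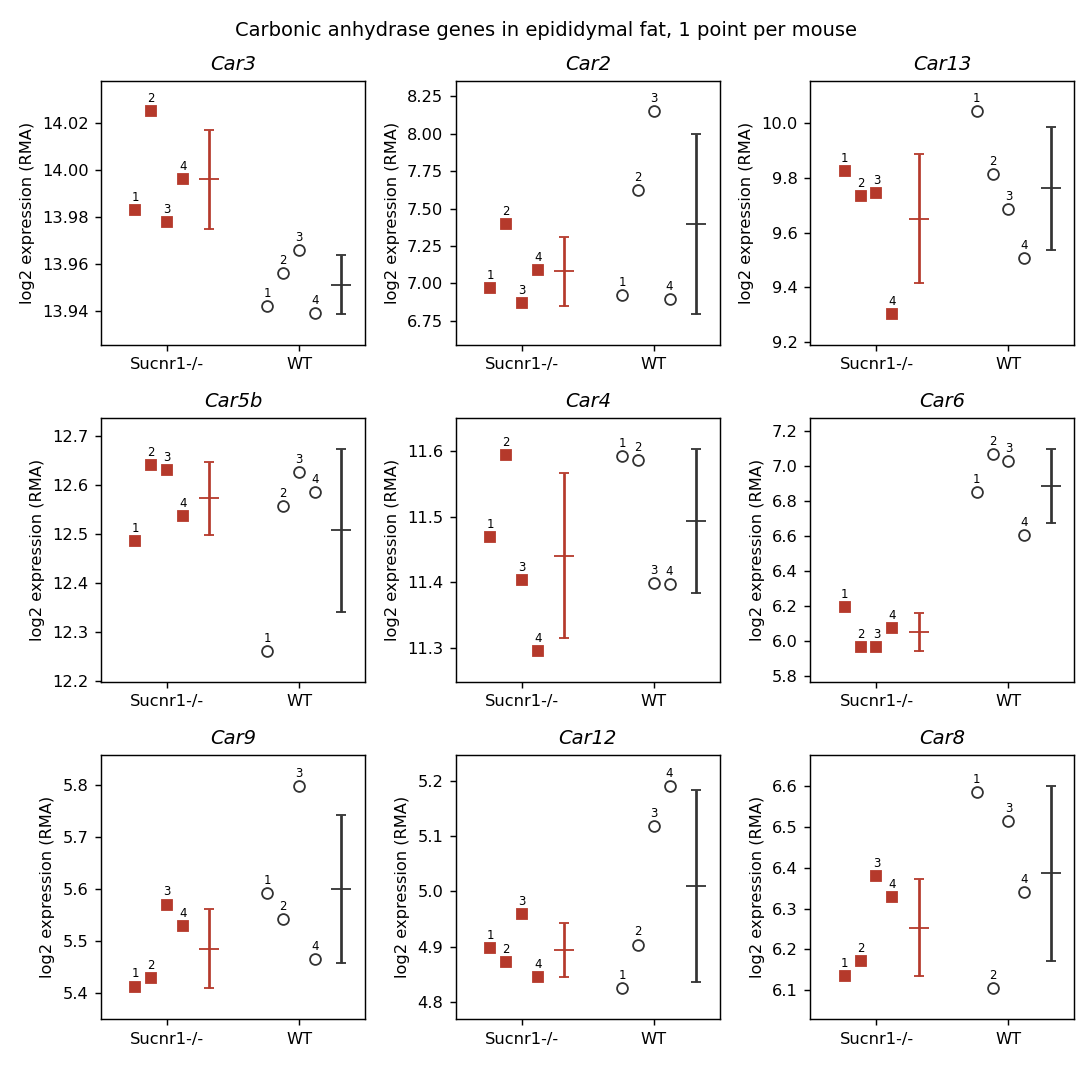
The vertical axes give RMA log2 expression of the 9 measured carbonic anhydrase genes, 1 panel per gene with its own scale, 1 point per mouse with the replicate number above it. Filled squares are *Sucnr1*-/- mice and open circles WT mice, with the mean and SD beside them. Only *Car6* and *Car3* show no overlap, and all 8 values of *Car3* lie between 13.94 and 14.03.

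*Car6* showed the widest difference of the 9 genes. It encodes the secreted member of the family, found in saliva and milk, and in mouse cells a second, intracellular form is known that appears under stress. The 4 *Sucnr1*-/- mice had log2 values of 6.19, 5.96, 5.96 and 6.07, against 6.85, 7.07, 7.03 and 6.60 in the 4 WT mice. All *Sucnr1*-/- mice lay below all WT mice, with a gap of 0.41 between the groups, and 1.87% of all genes lay apart in this direction. The mean was 6.05 ± 0.11 (SD, n = 4) in *Sucnr1*-/- mice and 6.89 ± 0.21 (SD, n = 4) in WT mice. The log2 difference was −0.84 (SE 0.11), a ratio of 0.558. All 4 *Sucnr1*-/- values lay below the lowest array median (6.28), though *Car6* was not among the dimmest 40% of genes by mean level. Whether background limited the ratio was not tested. Of all 18820 genes, 67 (0.356%), *Car6* included, had a difference at least as far below 0. On leaving out each mouse in turn the difference of *Car6* lay between −0.94 and −0.78. No other gene of the 9 had such a gap between the genotypes.

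The 3 nearest measured protein-coding genes on each side of *Car6* on chromosome 4 all had overlapping groups. Their order is that of GRCm38.p6, used for names and order because no genome build is given for the array values. On one side lie *Slc2a7* and *Slc2a5*, both sugar transporter genes, and *Gpr157*, with differences of 0.02 (SE 0.10), 0.08 (SE 0.20) and 0.20 (SE 0.19). On the other lie *Rere*, a transcriptional co-repressor, *Slc45a1* and *Errfi1*, an inhibitor of the EGF receptor, with 0.17 (SE 0.10), 0.08 (SE 0.07) and −0.34 (SE 0.23). Thus 5 of the 6 had a higher mean in *Sucnr1*-/- mice and *Errfi1* a lower one.

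The stretch before the start site of *Car6* is shown because this gene was the one that stood apart, and that of *Car9* because hypoxia-inducible factor is known to act on this gene close to its start. Both are 250 bases from RefSeq, build GRCm38.p6, read 5′ to 3′ on the strand of the gene. *Car6* is at chr4:150201136-150201385 on the minus strand and *Car9* at chr4:43506776-43507025 on the plus strand. Capitals mark the core of the hypoxia response element, ACGTG or GCGTG on either strand, and the E-box CACGTG, which contains the first of these on both strands.
Car6: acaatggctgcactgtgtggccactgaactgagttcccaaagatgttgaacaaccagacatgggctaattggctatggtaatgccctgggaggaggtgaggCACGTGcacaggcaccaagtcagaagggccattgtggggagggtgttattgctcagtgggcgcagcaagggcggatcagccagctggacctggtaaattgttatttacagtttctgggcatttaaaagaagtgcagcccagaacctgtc
Car9: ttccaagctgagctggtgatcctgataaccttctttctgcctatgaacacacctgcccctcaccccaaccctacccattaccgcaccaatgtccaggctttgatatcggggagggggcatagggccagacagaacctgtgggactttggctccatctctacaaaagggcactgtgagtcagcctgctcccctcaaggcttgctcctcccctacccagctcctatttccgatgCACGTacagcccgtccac
*Car6* holds the full E-box and *Car9* the core alone, on the reverse strand close to the start. Of 32851 RefSeq windows of this length, 16.6% hold ACGTG, 28.2% GCGTG, 38.6% either of them and 6.02% the E-box, on at least 1 strand. An entry was found for 6 of the 10 genes, and 4 of the 6 hold a hypoxia response core, the others being *Car14* and *Car5b*, but not *Car4* or *Car12*. A match of letters is a description of the window and shows no binding.

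The cytosolic enzymes *Car3*, *Car2* and *Car13* lie side by side on chromosome 3, in the order *Car13*, *Car1*, *Car3*, *Car2*. *Sucnr1* is on the same chromosome, with 150 measured protein-coding genes between it and *Car2*. Beyond the group lie *Rbis* and *E2f5* on one side, at −0.02 (SE 0.09) and −0.17 (SE 0.11), and *Ythdf3* and *Cypt12* on the other, at 0.00 (SE 0.05) and 0.19 (SE 0.28). Between *Car2* and *Ythdf3* lie 2 measured protein-coding genes with provisional names, *Gm9733* at −0.45 (SE 0.51) and *Gm5150* at −0.64 (SE 0.41), both with overlapping groups. The 4 adjacent family genes differed in direction. *Car3* and *Car1* had higher means in *Sucnr1*-/- mice, whereas *Car2* and *Car13* had lower ones.

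*Car3*, the adipocyte and slow muscle enzyme, was nearly constant between animals. Log2 values were 13.98, 14.03, 13.98 and 14.00 in *Sucnr1*-/- mice, against 13.94, 13.96, 13.97 and 13.94 in WT mice. Every *Sucnr1*-/- mouse lay above every WT mouse, as did 2.37% of all genes, but the gap was 0.0117 log2 units. The means were 14.00 ± 0.02 (SD, n = 4) in *Sucnr1*-/- mice and 13.95 ± 0.01 (SD, n = 4) in WT mice, a difference of 0.04 (SE 0.05) or a ratio of 1.03. The SE exceeds the difference because limma draws each gene's spread towards that of all genes, while the animals themselves differed less for *Car3*. With quantile normalization the groups overlapped and the difference was 0.03, and with each array centred on its median it was 0.09. The highest value of any probe set on any array was 14.53, and only 3 genes, *Car3* included, had a mean as high as that of *Car3*, so the signal lay near the top of the scale. Adipocyte markers had higher means in *Sucnr1*-/- mice for 10 of 11 genes (median 0.08, and 0.02 without WT replicate 1), and their summed linear signal was 100000 to 104800 in *Sucnr1*-/- mice and 88610 to 101800 in WT mice. Muscle markers were divided, 5 higher and 6 lower of 11, with a summed signal of 1928 to 2605 in *Sucnr1*-/- mice and 1252 to 2625 in WT mice. The brightest muscle marker had a mean log2 level of 10.6 and the others 4.3 to 6.37, so 1 gene dominated that sum. The part of adipocyte and muscle markers in the *Car3* values was not tested.

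*Car2*, the fast cytosolic enzyme of red cells, osteoclasts and kidney, had the widest spread of the 9 genes among WT mice. Log2 values were 6.97, 7.40, 6.87 and 7.09 in *Sucnr1*-/- mice, against 6.92, 7.62, 8.15 and 6.90 in WT mice. WT replicates 2 and 3 lay above all *Sucnr1*-/- mice, while WT replicates 1 and 4 lay within their range. The mean was 7.08 ± 0.23 (SD, n = 4) in *Sucnr1*-/- mice and 7.40 ± 0.60 (SD, n = 4) in WT mice, a difference of −0.32 (SE 0.27). Without WT replicate 3 it was −0.07, so 1 mouse carried most of it. Leaving out each other mouse in turn gave −0.48 to −0.24. The same replicates 2 and 3 were the highest WT mice for *Alas2*, the first enzyme of haem synthesis in red cell precursors. *Alas2* was at 10.43, 10.27, 9.81 and 10.61 in *Sucnr1*-/- mice and at 9.53, 10.57, 10.79 and 10.17 in WT mice. Among *Sucnr1*-/- mice replicate 3 was the lowest for both genes, but the highest was replicate 2 for *Car2* and replicate 4 for *Alas2*. Of 3 measured erythroid markers, from 10 listed, 1 had a higher and 2 a lower mean (median −0.07, and 0.11 without WT replicate 2). Averaged over the 3, with each gene's WT mean set to 0, the level was −0.04, 0.06, −0.33 and 0.10 in *Sucnr1*-/- mice and −0.39, 0.39, 0.31 and −0.31 in WT mice. Osteoclast-like markers had lower means in *Sucnr1*-/- mice for 8 of 9 genes (median −0.21), with a summed linear signal of 6007 to 6853 in *Sucnr1*-/- mice and 7041 to 8156 in WT mice. Averaged in the same way, their level was −0.185, −0.34, −0.28 and −0.32 in *Sucnr1*-/- mice and 0.19, −0.04, 0.01 and −0.16 in WT mice. Whether red cell or osteoclast-like transcripts contributed to the *Car2* values was not tested.

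*Car13*, a cytosolic enzyme of wide distribution, ran at 9.83, 9.73, 9.74 and 9.30 in *Sucnr1*-/- mice and at 10.04, 9.81, 9.69 and 9.51 in WT mice. Replicate 4 was the lowest of its group in both genotypes, and the groups overlapped. The difference was −0.11 (SE 0.14), and 0.01 without *Sucnr1*-/- replicate 4. Without WT replicate 1 it was −0.02, and the value furthest below 0 on leaving out a mouse was −0.20.

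*Car5b* encodes a mitochondrial enzyme that supplies bicarbonate to pyruvate carboxylase and is the mitochondrial form outside the liver. Log2 values were 12.49, 12.64, 12.63 and 12.54 in *Sucnr1*-/- mice, against 12.26, 12.56, 12.63 and 12.59 in WT mice. WT replicate 1 was below all other animals and the remaining WT mice lay among the *Sucnr1*-/- mice. The mean was 12.57 ± 0.07 (SD, n = 4) in *Sucnr1*-/- mice and 12.51 ± 0.17 (SD, n = 4) in WT mice, a difference of 0.07 (SE 0.09). Without WT replicate 1 the difference was −0.02, the other way. Averaged over the adipocyte markers in the same way, that mouse was also the lowest of the 8, at −0.14, against 0.05 to 0.11 in *Sucnr1*-/- mice and −0.01 to 0.09 in the other WT mice.

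*Car4*, anchored at the cell surface by a lipid and known from capillary endothelium, gave 11.47, 11.60, 11.40 and 11.30 in *Sucnr1*-/- mice and 11.59, 11.59, 11.40 and 11.40 in WT mice. The highest and the lowest value both belonged to *Sucnr1*-/- mice, so the WT range lay inside theirs. The difference was −0.05 (SE 0.09), with −0.10 without *Sucnr1*-/- replicate 2 and −0.00445 without *Sucnr1*-/- replicate 4 as the extremes on leaving out a mouse. Of 10 endothelial markers 4 had higher and 6 lower means in *Sucnr1*-/- mice, with a median of −0.01 that was 0.08 without WT replicate 2.

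*Car9* and *Car12*, transmembrane enzymes that face the outside of the cell and are known in tumours as hypoxia-induced genes, both fell among the dimmest 40% of genes by mean level, and their groups overlapped. *Car9* was at 5.41, 5.43, 5.57 and 5.53 in *Sucnr1*-/- mice and at 5.59, 5.54, 5.80 and 5.47 in WT mice, a difference of −0.11 (SE 0.08). The lowest 2 values of the 8 were from *Sucnr1*-/- mice and the highest, 5.80, from WT replicate 3, without which the difference was −0.05. The value furthest below 0 on leaving out a mouse was −0.16. *Car12* was at 4.90, 4.87, 4.96 and 4.84 in *Sucnr1*-/- mice and at 4.82, 4.90, 5.12 and 5.19 in WT mice, a difference of −0.12 (SE 0.09). WT replicates 3 and 4 were the highest and WT replicate 1 the lowest of the 8. The difference was −0.18 without WT replicate 1 and −0.06 without WT replicate 4. *Car8*, best known from the Purkinje cells of the cerebellum, where it binds the inositol trisphosphate receptor, was at 6.13, 6.17, 6.38 and 6.33 in *Sucnr1*-/- mice and at 6.59, 6.10, 6.52 and 6.34 in WT mice. WT replicate 2 was the lowest of all, and the difference was −0.13 (SE 0.11). It was −0.23 without WT replicate 2 and −0.07 without WT replicate 1.

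The spread between animals was wider in WT than in *Sucnr1*-/- mice for 6 of the 9 genes, as it was for 58.3% of all genes. The difference was larger than the pooled SD of the groups for 3 of the 9 genes, and for 26.8% of all genes. Leaving out mice 1 at a time kept the sign for 7 of the 9 genes, with *Car5b* and *Car13* as the exceptions given above.

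**Figure D2:**
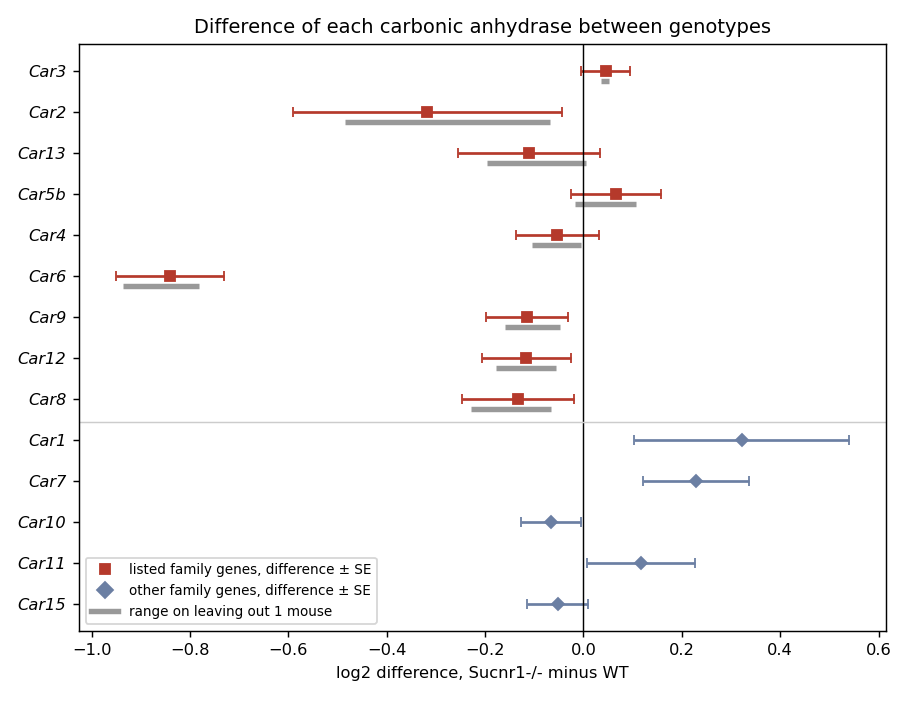
Log2 difference, *Sucnr1*-/- minus WT (horizontal axis), of the 9 measured genes (red squares) and 5 other family genes (blue diamonds), with the SE from limma as error bars. Grey bars give the range on leaving out 1 mouse at a time. *Car6*, at −0.84, lies apart from the others, which lie between −0.32 and 0.32.

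**Figure D3:**
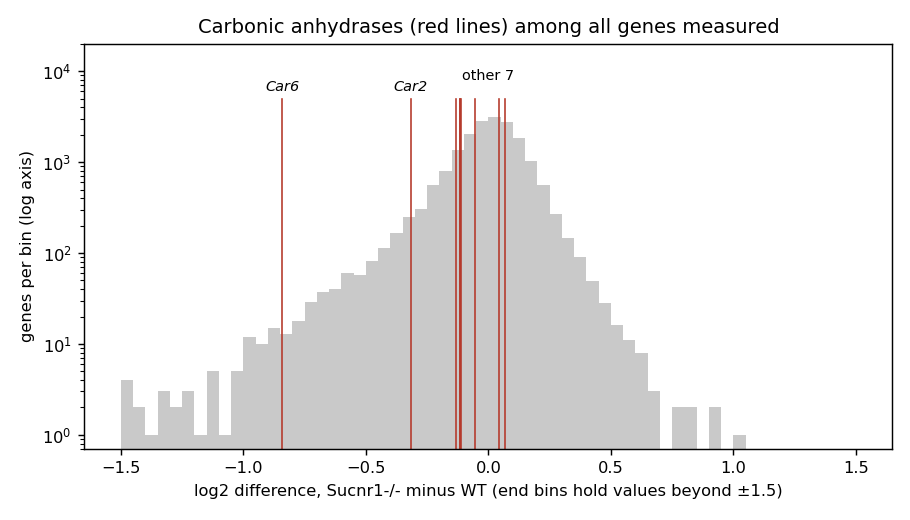
Number of genes (vertical log axis) by log2 difference, *Sucnr1*-/- minus WT (horizontal axis, in bins of 0.05), for all 18820 genes, with the 9 carbonic anhydrases as red lines. *Car6*, at −0.84, lies in the lower tail, with 67 genes at or beyond it, and the other 8 lie between −0.32 and 0.07. The end bins hold genes beyond the axis.

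Of the 6 other family genes 5 were measured, *Car5a* being read only by probe sets shared with another gene. *Car1*, a red cell enzyme, had a difference of 0.32 (SE 0.22) and *Car7*, a cytosolic enzyme of neurons, 0.23 (SE 0.11). *Car11* and *Car10*, both without catalytic activity, had 0.12 (SE 0.11) and −0.07 (SE 0.06), and *Car15*, a membrane-bound enzyme, −0.05 (SE 0.06). None passed limma after adjustment over all genes (adjusted p 0.719 for *Car7* and 0.836 for *Car15*, the lowest and highest). At an unadjusted p under 0.05 neither limma nor the methods' t-test gave any. All 5 had overlapping groups, and 3 had a higher mean in *Sucnr1*-/- mice. Their median of 0.12 was 0.04 without WT replicate 1.

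Genes that use or move the products of the reaction were examined in 5 lists. None of the 63 measured genes passed limma after adjustment. At an unadjusted p under 0.05, where 6.82% of all genes lay, limma gave 2 higher and 2 lower genes and the methods' t-test 2 in all. Of 17 bicarbonate transporters 9 had higher and 8 lower means (median 0.01). The sodium-driven exchanger *Slc4a10* was at 0.13 (SE 0.07) and the anion exchangers *Slc26a6* and *Slc4a3* at −0.16 (SE 0.11) and 0.18 (SE 0.15). Of 14 proton and lactate transporters 5 were higher and 9 lower (median −0.04). *Slc16a1*, which encodes MCT1, a carrier of lactate with a proton that can also export succinate, was at 9.78, 9.50, 9.94 and 9.92 in *Sucnr1*-/- mice and at 10.44, 10.16, 10.45 and 9.91 in WT mice. The *Sucnr1*-/- mice were lower apart from an overlap with WT replicate 4, with a difference of −0.46 (SE 0.14; limma, adjusted p = 0.712). *Slc16a7*, which encodes the related carrier MCT2, had 0.32 (SE 0.16), and *Slc9a7*, a sodium-proton exchanger of intracellular membranes, −0.39 (SE 0.17; limma, adjusted p = 0.719).

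Of 7 carbon dioxide and water channels 6 had higher means (median 0.04), with *Aqp1*, a channel of capillary endothelium and red cells, at 0.16 (SE 0.08). The ammonia channel genes *Rhcg* and *Rhbg* were at 0.09 (SE 0.08) and −0.05 (SE 0.08). Of 10 genes for enzymes that fix bicarbonate or attach their biotin 7 were higher (median 0.06), but the median was −0.06 without WT replicate 1 and −0.00936 with array weights. *Mccc1*, a subunit of the leucine-degrading carboxylase, was at 9.80, 9.96, 9.92 and 9.89 in *Sucnr1*-/- mice and at 9.26, 9.65, 9.71 and 9.80 in WT mice. The groups did not overlap, although WT replicate 4 came close, and the difference was 0.29 (SE 0.11; limma, adjusted p = 0.712). No other gene of the 5 lists had groups without overlap, and 2.37% of all genes lay apart in this direction. *Pccb*, of propionyl-CoA carboxylase, had 0.17 (SE 0.11) and *Cad*, which starts pyrimidine synthesis, −0.20 (SE 0.13). Of 15 hypoxia-inducible genes 8 were higher and 7 lower (median 0.00379), with *Ndrg1* at 0.31 (SE 0.11; limma, adjusted p = 0.712), *Vegfa* at 0.30 (SE 0.20) and *P4ha1* at −0.31 (SE 0.17). Their summed linear signal, which bright genes dominate, was 27700 to 28990 in *Sucnr1*-/- mice and 26740 to 27270 in WT mice, without overlap. The sums of the other 4 lists overlapped, and those of the osteoclast-like markers did not, in the other direction. No single hypoxia-inducible gene had groups without overlap. Averaged with each gene's WT mean set to 0, their level was −0.09 to 0.11 in *Sucnr1*-/- mice and −0.05 to 0.06 in WT mice. These averages overlapped.

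**Figure D4:**
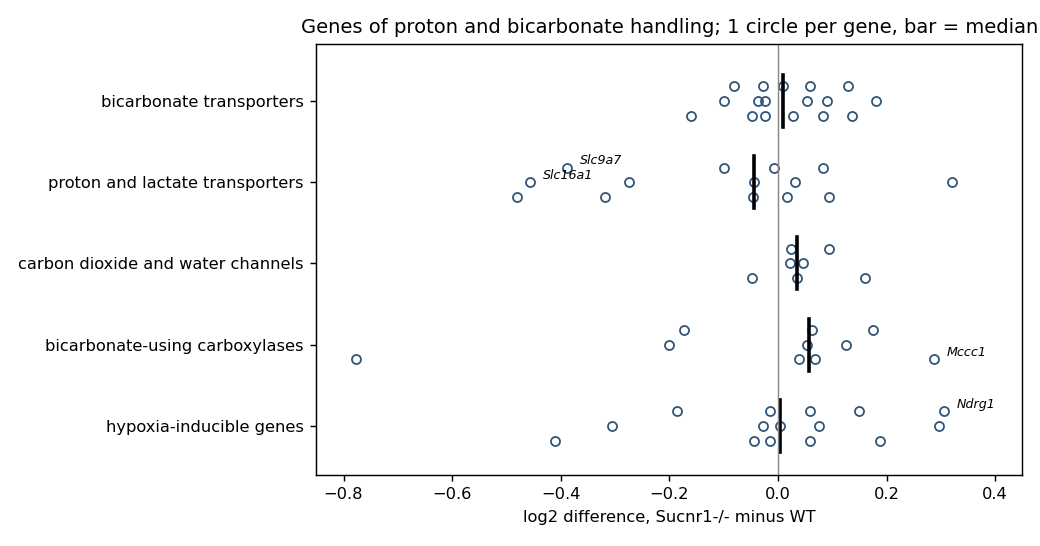
Log2 difference, *Sucnr1*-/- minus WT (horizontal axis), of the genes in 5 lists of proton, bicarbonate and hypoxia biology (rows), 1 circle per gene with the list's median as a black bar. The 4 labelled genes had an unadjusted p under 0.05 by limma, and none passed after adjustment.

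The 2 genes whose pattern over the 8 mice was most like that of each carbonic anhydrase were found by Pearson's r, after the mean of each genotype had been subtracted, among genes above the median level. These 8 arrays share their processing, and the best matches of so many genes are high by selection. *Car6* was most like *Thy1* (r = 0.935), a surface protein of stromal cells and T cells, and *Dyrk2* (r = 0.931), a kinase. *Car3* was most like *Trpv2* (r = 0.961), a cation channel, and *Washc1* (r = 0.953), of endosomal sorting. *Car2* was closest to *Ndufa7* (r = 0.972), of mitochondrial complex I, and *Cln6* (r = 0.953). *Car13* was closest to *Ifitm2* (r = 0.988), an interferon-induced membrane protein, and *Snord42b* (r = 0.988), a small nucleolar RNA. For *Car5b* the nearest were *Shld2* (r = 0.992) and *Ecm2* (r = 0.99), and for *Car4* they were *Acin1* (r = 0.995) and *Bcl7c* (r = 0.976). *Car8* was closest to *Ncoa7* (r = 0.992) and to *Mmp12* (r = 0.981), the macrophage elastase. *Car9* was closest to *Nsa2* (r = 0.966) and *Gcnt1* (r = 0.958), and *Car12* to *Hnmt* (r = 0.978), which breaks down histamine, and *Morc4* (r = 0.974).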

How the data were processed

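Epididymal white adipose tissue from LFD-fed *Sucnr1*-/- and WT mice (n = 4 each) was profiled with 1 array per mouse. The deposited values are log2 expression that the authors made with RMA (background correction, joint normalization and summary of probes). Its version and a genome build are not given in the sources used here. Of 35556 probe sets 21218 carried exactly 1 gene symbol and were used, of which 21185 matched RefSeq genes by Entrez ID. For 1386 genes with several probe sets the brightest was taken, leaving 18820 genes, none filtered out. The number of arrays limits the precision.

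Genotypes were compared by limma 3.58.1 (R 4.3.3), using lmFit with eBayes. P-values were adjusted by the Benjamini-Hochberg method across the 18820 genes, with 0.05 as the limit. Replicates are taken as separate mice because the paper counts animals per genotype, while the sample titles give only a replicate number. The family genes and lists were chosen with earlier results of these data known. Named genes are all family genes, the 3 of smallest unadjusted p in each pathway list and the 2 closest by pattern. To these were added the 2 nearest named protein-coding genes on each side of the chromosome 3 group. The neighbours of *Car6*, *Cd68* and *Alas2* were named after their values were seen. Marker lists cover adipocytes, macrophages, osteoclast-like cells, lymphocytes, endothelium, red cells, muscle, epididymis, mesothelium, stroma, nerve, beige adipocytes and immediate early genes. Alternatives were another prior, the methods' t-test, a filter on dim genes, array weights, 2 other scalings, a replicate block, averaged probe sets and leaving out each mouse. The procedure was tested on simulated data. Python 3.11.15 and matplotlib 3.10.9 made the figures.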

Additional observations from a re-analysis of the deposited data

Results flagged for a closer look

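Among 60 groups of 4 mice (30 genes in each genotype), 4 held a mouse far from the other 3 by Dixon's criterion, where chance flags about 1 in 20 groups. WT replicate 1 was the lowest for 3 of them. It lay at 6.83 for *Car7* (7.22 to 7.27 in the other WT mice), at 7.01 for *Car11* (7.32 to 7.34) and at 9.72 for *Pccb* (all near 10.2). WT replicate 2 was the highest for *Car15*, at 5.31 (5.12 to 5.15 in the other WT mice).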

How the results depend on the processing

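In none of the 17 alternative settings did a gene pass the adjusted threshold. The difference of *Car6* lay between −0.94 and −0.78 in all 17. Of the 9 carbonic anhydrases 7 kept their sign in every setting that measured them, *Car9* and *Car12* having no value with the dimmest 40% of genes left out. Several settings could not alter the differences of these genes. These were the other prior, the t-test, the filter on dim genes, the replicate block and averaged probe sets, as each gene had 1 probe set. *Car5b* was at −0.02 without WT replicate 1 and *Car13* at 0.01 without *Sucnr1*-/- replicate 4, so the number of genes with a higher mean in *Sucnr1*-/- mice was between 1 and 3 on leaving out a mouse. Quantile normalization left 1 gene, *Car6*, with groups that did not overlap. Over all genes at an unadjusted p under 0.05, 652 were higher and 632 lower. Leaving out the dimmest 40%, which tests fewer genes, gave 369 and 535. Centring each array on its median, which shifts the median of all genes to 0.05, gave 1352 and 330, and *Car3* was then at 0.09. Leaving out a mouse gave 440 to 870 higher genes and 368 to 885 lower ones, the lowest of both without *Sucnr1*-/- replicate 2. Of 19 list medians 9 kept their sign throughout and 10 turned in at least 1 setting, those of bicarbonate transporters, carboxylases, hypoxia-inducible genes, endothelium, red cells, muscle, epididymis, mesothelium, stroma and beige adipocytes. The skeletal muscle median was 0.14 with dim genes left out, where the epididymis list had none left. Other causes of these shifts were not tested. With the replicate number as a block, 809 were higher and 1096 lower. Same-numbered mice had deviations correlated at 0.454, 0.141, 0.106 and 0.0148, and 4 of 8 mice were closest to the mouse of their own number. The labels name no shared litter or day and 1 pair lay under 0.1, and whether the numbers pair mice was not settled. With 1 mouse of each genotype at every number, the block cannot alter a difference, only its SE. The SE of *Car13* was 0.08 with it and 0.14 without. A setting added after seeing the data, without replicate 1 of both genotypes, gave 669 and 779. Signal over background was not assessed here, which limits the dim genes.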
